A study of Mus musculus with 2 samples.

Results

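The insulin-like growth factor (IGF) axis was followed through the cells of the mouse cervix by 8 genes: the ligand Igf1, its receptor Igf1r and the binding protein genes Igfbp2, Igfbp3, Igfbp4, Igfbp5, Igfbp6 and Igfbp7. They were taken by symbol from the deposited gene list and are 8 of the 31053 genes listed there. All 8 had counts in both libraries.

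IGF1 is a secreted peptide that acts on the receptor tyrosine kinase IGF1R and, through insulin receptor substrates, phosphoinositide 3-kinase and AKT, promotes growth and survival. IGFBP2 to IGFBP6 are secreted proteins that bind IGFs with high affinity and limit or prolong their action, while IGFBP7 binds them weakly and lies in basement membrane and vessel walls. In the female reproductive tract, stromal cells are known as a source of IGF1 for the epithelium, and ovarian hormones are known to regulate several binding proteins.

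Cells came from the cervix of female C57BL6/129 mice that had been ovariectomised at 7 to 8 weeks of age and left for 2 weeks. The control group stayed untreated for the 15 days of the experiment. The other group, labelled progesterone, was injected subcutaneously with 100 µg of estradiol (E2) in corn oil per day for 2 days and then carried a 25 mg pellet with a 21-day release, giving about 1 mg per day. The labels give 2 catalogue numbers for the pellet and do not say which hormone each holds. Each group is 1 single-cell library of 9 pooled mice. All mice lacked ovaries. The progesterone library differs from the control library in E2, injections and an implant as well as in progesterone, and the effects of these cannot be told apart.

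Because each group is a single library, no statistical comparison of the groups could be made and no p-value is given. Levels are unique molecular identifiers (UMIs, tags that count captured RNA molecules once) per 1000000 UMIs of a class of cells (CPM). Intervals are at 95% and cover counting error only: exact Poisson for levels, exact conditional binomial for ratios and exact Clopper-Pearson for shares. They say nothing of the spread between mice.

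The libraries held 5368 control and 10853 progesterone barcodes with 21658684 and 44811069 UMIs, of which 4579 and 8541 cells were analysed at median depths of 3733 and 4151 UMIs. The libraries shared 19 barcodes. Cells were grouped without the IGF genes and named from markers, and names are written as "-like". Control and progesterone cells numbered 1089 and 2893 for basal squamous-like, 576 and 1311 for suprabasal squamous-like, 309 and 2040 for luminal-like, 77 and 116 for fibroblast-like, 238 and 470 for macrophage-like, and 312 and 439 for neutrophil-like. There were 44 and 62 blood endothelium-like cells, so only the progesterone level is given for them. Smooth muscle-like cells numbered 2 and 18, and no level is given for them. A squamous-like cluster whose layer could not be assigned held 735 control and 64 progesterone cells, and 1166 and 991 cells stayed unnamed.

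The basal transcription factor gene Trp63 was higher in the basal than in the suprabasal squamous-like class, at 169 and 83.8 CPM in the control library and 238 and 96.5 CPM in the progesterone library. Krt10, a keratin of differentiating layers, was 49.5 CPM in the basal and 646 CPM in the suprabasal class of the control library, and 34.9 and 521 CPM in the progesterone library. The keratins Krt5 and Krt14 did not follow the names: Krt5 was 6287 CPM in the basal and 7261 CPM in the suprabasal class of the control library, and 2662 and 5189 CPM in the progesterone library. Krt14 was 22128 and 47542 CPM in the control library, and 6052 and 8343 CPM in the progesterone library. The sum of the 7 basal markers, much of it Krt14, was also higher in the suprabasal class, at 56188 against 32941 CPM and 16978 against 12827 CPM. Names were given from the mean log2 difference of the markers and not from this sum. The 7 suprabasal markers summed to 6328 CPM in the suprabasal and 929 CPM in the basal class of the control library, and to 3919 and 328 CPM in the progesterone library. The composition of the classes differed between the libraries. The basal squamous-like class was made of a mostly non-cycling cluster 3 (350 control and 2476 progesterone cells) and the cycling clusters 4 (505 and 246) and 11 (232 and 142), besides cluster 23 with 2 and 29 cells. The suprabasal squamous-like class was made of cluster 0 (164 and 1305 cells), which expressed Krt10 and Krtdap, and cluster 1 (412 and 6), which expressed Krt16 and Krt6b. The luminal-like class was made of clusters 9 (216 control and 86 progesterone cells), 17 (85 and 17), 5 (3 and 1009), 19 (5 and 888) and 10 (0 and 40). Most of its control cells and most of its progesterone cells thus lay in different clusters, and luminal-like class ratios compare these. Values within clusters are therefore given beside those of a class where a cluster held enough cells of both libraries. A cluster that comes almost wholly from 1 library, such as cluster 1, may be a property of that library rather than a cell type.

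Igf1, on chromosome 10 (87858265 to 87937042, plus strand, GRCm38), was read mainly from the stroma, the fibroblast-like, endothelium-like and smooth muscle-like cells together, which held 76.2% (60.5 to 87.9) of its UMIs in the control library and 88.5% in the progesterone library. Its UMIs numbered 42 in the control library and 227 in the progesterone library. Fibroblast-like cells held 69.0% (52.9 to 82.4) of them in the control library and 84.6% (79.2 to 89.0) in the progesterone library, from 0.446% and 1.04% of all UMIs. The Igf1 level in fibroblast-like cells was 324 CPM (217 to 465; 29 UMIs) in the control library and 484 CPM (418 to 557; 192 UMIs) in the progesterone library, for a ratio of 1.50 (1.01 to 2.29). The lower bound of that ratio lies just above 1, and the median depth of these cells was 962 UMIs in the control library and 2688.5 in the progesterone library. The part of depth in the ratio was not tested.

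In the epithelium Igf1 was at or near the limit of detection. Basal squamous-like cells held 0 Igf1 UMIs in the control library, which allows up to 0.565 CPM, and 4 UMIs (0.288 CPM) in the progesterone library. Luminal-like cells held 0 in both libraries, which allows up to 2.20 and 0.297 CPM. Outside the fibroblast-like class, Igf1 was read in macrophage-like cells at 18.0 CPM (7 UMIs) and 14.3 CPM (18 UMIs), and in blood endothelium-like cells of the progesterone library at 62.7 CPM (9 UMIs). Over all cells of a library the Igf1 ratio was 2.85 (2.05 to 4.07), against 1.50 within the fibroblast-like class, whose share of UMIs also differed between the libraries. Igf2, the second IGF ligand, had 0 UMIs in both libraries.

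**Figure D1:**
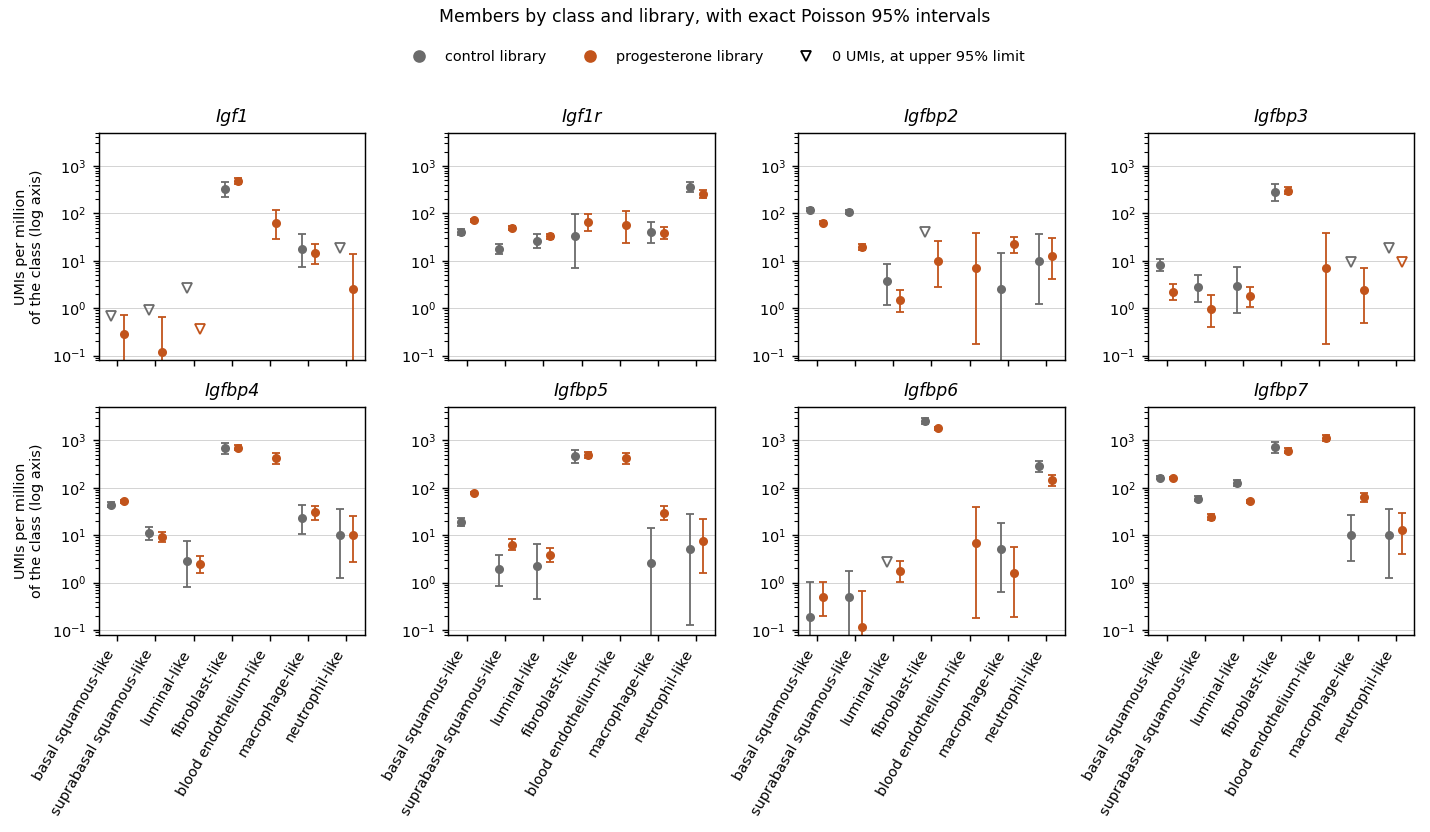
Level of each gene in 7 classes of cells, in CPM of the class on a log axis, for the control library (grey) and the progesterone library (orange); bars are exact Poisson 95% intervals, and open triangles mark 0 UMIs at the upper limit. Igf1, Igfbp3 and Igfbp6 are far higher in fibroblast-like cells than in the epithelium, Igfbp2 is 119 and 63.1 CPM in basal squamous-like cells against 3.67 and 1.49 CPM in luminal-like cells, and control endothelium is not drawn because it had 44 cells.

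Igf1r, on chromosome 7 (67952827 to 68233668, plus strand), was read in each of the 7 classes in the plot of levels. Basal squamous-like cells had 40.7 CPM (35.4 to 46.5) in the control library and 71.5 CPM (67.1 to 76.0) in the progesterone library, for a ratio of 1.76 (1.52 to 2.05). Suprabasal squamous-like cells had 17.7 CPM and 48.1 CPM, for a ratio of 2.73 (2.11 to 3.56), while luminal-like cells had 26.4 CPM and 32.8 CPM, for a ratio of 1.24 (0.880 to 1.81) whose interval includes 1.

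These class ratios changed when clusters were taken alone. In cluster 3, which holds most basal squamous-like cells of the progesterone library, Igf1r was 85.3 CPM in the control library and 75.3 CPM in the progesterone library, for a ratio of 0.883 (0.682 to 1.16). In the cycling clusters 4 and 11 the ratios were 1.53 (1.08 to 2.16) and 1.56 (1.10 to 2.22). In cluster 0, the suprabasal cells that both libraries share, Igf1r was 39.0 and 48.2 CPM, for a ratio of 1.24 (0.837 to 1.90), and in cluster 1, present in the control library, it was 13.2 CPM. The class ratios above 1 thus came with a different mix of clusters in each library.

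Among the 7 classes in the plot of levels, neutrophil-like cells had the highest Igf1r level in both libraries. It was 364 CPM (285 to 459; 72 UMIs) in the control library and 258 CPM (210 to 313; 102 UMIs) in the progesterone library, for a ratio of 0.708 (0.519 to 0.971). With coarser clustering (Leiden resolution 0.5) the direction turned, to a ratio of 1.65. Neutrophil-like cells are shallow and gave 0.982% of the control library's UMIs and 9.47% of its Igf1r UMIs. Next in order in the progesterone library came the basal squamous-like class at 71.5 CPM, fibroblast-like cells at 65.5 CPM (42.8 to 96.0), blood endothelium-like cells at 55.7 CPM (24.1 to 110) and the suprabasal squamous-like class at 48.1 CPM. The intervals of the basal, fibroblast-like and endothelium-like levels overlap, so these neighbours were not separated at this depth.

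Among the 7 classes in the plot of levels, Igfbp3, Igfbp4 and Igfbp6 were highest in fibroblast-like cells. Igfbp6 encodes the binding protein that prefers IGF2, and the gene lies on chromosome 15 (102144362 to 102149511, plus strand). Its level in fibroblast-like cells was 2578 CPM (231 UMIs) in the control library and 1789 CPM (710 UMIs) in the progesterone library, for a ratio of 0.694 (0.598 to 0.809). The 7 fibroblast markers were lower too, summing to 29045 CPM in the control and 18708 CPM in the progesterone library. The 7 basal squamous markers, 3 of them at 0 in the control library, summed to 1172 and 2719 CPM in this class. Its median depth was 962 and 2688.5 UMIs. The part of these differences in the Igfbp6 ratio was not tested. The class held 70.2% and 88.5% of all Igfbp6 UMIs. In basal squamous-like cells 1 and 7 UMIs were read (0.188 and 0.503 CPM), and in luminal-like cells 0 and 18 UMIs (0 and 1.78 CPM). At these depths the epithelial levels are close to those of single molecules.

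Neutrophil-like cells were the only other class in the plot of levels with an Igfbp6 level above 100 CPM in either library. They had 283 CPM (214 to 368; 56 UMIs) in the control library and 147 CPM (111 to 190; 58 UMIs) in the progesterone library, for a ratio of 0.518 (0.352 to 0.761). This direction also turned with coarser clustering, to 1.44. The UMIs were spread over 39 of 312 and 46 of 439 cells, with at most 3 and 4 per cell. The fibroblast gene Dcn was scarce beside Igfbp6 there: Dcn UMIs per Igfbp6 UMI were 7.77 and 6.72 in fibroblast-like cells, against 0.0357 and 0.224 in neutrophil-like cells.

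Igfbp3 encodes the main carrier of IGFs in blood and lies on chromosome 11 (7206086 to 7213923, minus strand), 3539 bases from Igfbp1, which had 0 UMIs. In fibroblast-like cells Igfbp3 was 279 CPM (181 to 412) in the control library and 302 CPM (251 to 362) in the progesterone library, for a ratio of 1.08 (0.700 to 1.74). In basal squamous-like cells it was 8.28 CPM (44 UMIs) in the control library and 2.23 CPM (31 UMIs) in the progesterone library, for a ratio of 0.269 (0.164 to 0.436). The ratio was below 1 in each of the basal clusters 3, 4 and 11, at 0.320, 0.325 and 0.280, although 2 of these 3 intervals (cluster 3, 0.120 to 1.07, and cluster 11, 0.0302 to 1.28) include 1. Of all Igfbp3 UMIs, 18.9% were in fibroblast-like and 33.3% in basal squamous-like cells of the control library. In the progesterone library these shares were 62.5% and 16.1%.

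Igfbp4 encodes a carrier that mostly inhibits IGF action until it is cut by pappalysin, and the gene lies on chromosome 11 (99041244 to 99054392, plus strand). Its level in fibroblast-like cells was 681 CPM in the control library and 698 CPM in the progesterone library, for a ratio of 1.03 (0.775 to 1.38). Blood endothelium-like cells of the progesterone library had 425 CPM (325 to 546). Basal squamous-like cells had 44.2 CPM and 52.0 CPM, for a ratio of 1.18 (1.01 to 1.37), yet all 3 clusters large enough to compare had ratios below 1. Cluster 3 had 0.938 (0.693 to 1.30), cluster 4 had 0.652 (0.434 to 0.956) and cluster 11 had 0.612 (0.376 to 0.968). Cluster 3 had the highest Igfbp4 level of the 3 in both libraries (61.9 and 58.0 CPM) and held more of the class in the progesterone library.

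Igfbp7 encodes a secreted protein of vessel walls and basement membrane, and the gene lies on chromosome 5 (77349240 to 77408041, minus strand). It was read in all epithelial layers. Among the 7 classes in the plot of levels, Igfbp7 was highest in blood endothelium-like cells of the progesterone library, at 1143 CPM (974 to 1332). The 18 smooth muscle-like cells of that library, too few for a level, held 2.73% of its Igfbp7 UMIs from 0.154% of all UMIs. Fibroblast-like cells had 714 CPM in the control library and 607 CPM in the progesterone library, for a ratio of 0.850 (0.643 to 1.14). Basal squamous-like cells had 164 CPM and 162 CPM, for a ratio of 0.988 (0.913 to 1.07), and the share of these cells with an Igfbp7 UMI after each cell was thinned to 2000 UMIs was 27.5% and 26.8%.

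Igfbp7 was lower in the suprabasal squamous-like and luminal-like classes of the progesterone library. It was not lower in the squamous-like cluster without an assigned layer, at 76.6 and 98.5 CPM, for a ratio of 1.29 (0.889 to 1.81). Suprabasal squamous-like cells had 58.9 CPM in the control library and 24.3 CPM in the progesterone library, for a ratio of 0.412 (0.340 to 0.499), and within cluster 0 the ratio was 0.564 (0.383 to 0.858). Luminal-like cells had 126 CPM and 51.8 CPM, for a ratio of 0.410 (0.345 to 0.490). Some marker sums of other cells were also lower in the progesterone library in this class. The 7 neutrophil markers, 1 of them at 0 in each library, summed to 12981 CPM in the control library and 542 CPM in the progesterone library. The 7 basal squamous markers summed to 5240 and 1672 CPM. Fibroblast, pericyte and macrophage sums went the other way, at 3.67 and 7.14, 33.7 and 59.6, and 27.1 and 30.1 CPM. The class's own 8 luminal markers summed to 11392 and 5430 CPM. The part of RNA from other cells in the luminal values was not tested. In cluster 9, which held enough luminal-like cells of both libraries to compare, Igfbp7 was 85.4 and 82.4 CPM, for a ratio of 0.964 (0.619 to 1.48). The other luminal-like clusters had under 50 cells of at least 1 library and were not compared. Igfbp7 was 183 CPM in cluster 17 of the control library, and 11.9 and 87.0 CPM in clusters 5 and 19 of the progesterone library. The luminal difference was thus not seen beyond counting error in the cluster that could be compared.

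Igfbp2 and Igfbp5 lie next to each other on chromosome 1 and are transcribed towards each other, Igfbp2 from 72824503 to 72852474 on the plus strand and Igfbp5 from 72857932 to 72874884 on the minus strand, with 5457 bases between them. Both were carried mainly by squamous-like cells, and their ratios over the whole basal class went in opposite directions. Within cluster 3 both ratios were above 1, at 2.48 for Igfbp2 and 1.76 for Igfbp5. The ratios were 0.276 and 0.974 in cluster 4 and 0.336 and 4.00 in cluster 11. The start regions of both genes are shown because the neighbouring genes differ there in base composition and motifs. The sequences are from the RefSeq promoter table (GRCm38.p6), written 5′ to 3′ on the gene's own strand, chr1:72824230-72824479 (plus strand) for Igfbp2 and chr1:72874885-72875115 (minus strand) for Igfbp5. Capitals mark the GC box letters GGGCGG in Igfbp2 and the TATA variant TATTTAAA in Igfbp5.
Igfbp2: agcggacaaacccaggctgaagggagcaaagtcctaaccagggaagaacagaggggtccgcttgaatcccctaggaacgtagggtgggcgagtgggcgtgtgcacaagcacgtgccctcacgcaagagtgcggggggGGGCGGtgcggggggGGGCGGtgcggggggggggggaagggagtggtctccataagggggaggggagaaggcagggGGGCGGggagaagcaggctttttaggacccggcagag
Igfbp5: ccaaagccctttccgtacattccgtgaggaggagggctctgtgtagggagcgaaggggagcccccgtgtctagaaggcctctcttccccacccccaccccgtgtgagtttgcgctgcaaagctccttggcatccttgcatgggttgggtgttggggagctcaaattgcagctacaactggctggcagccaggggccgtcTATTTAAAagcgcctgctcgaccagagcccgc

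The Igfbp2 stretch has 67.2% G and C and 3 matches to GGGCGG, and the Igfbp5 stretch has 60.6% G and C and its TATTTAAA match begins 32 bases before the GENCODE start of the gene at 72874884. Over all 32851 promoter windows of 300 bases in the table, searched on both strands, GGGCGG was in 35.7%, TATAAA in 13.6% and TATTTAAA in 1.81%. The 8 genes have 9 such windows, and these held GGGCGG in 3 (Igf1r, Igfbp2 and Igfbp7), TATAAA in 2 (Igfbp4 and Igfbp6) and TATTTAAA in 1. None of these motifs contains another. The palindrome GNACANNNTGTNC, bound by progesterone, glucocorticoid and androgen receptors, was in 0.475% of all windows and in 0 of the 9. TATTTAAA was added to the search after the Igfbp5 sequence had been read. A match of letters is a description and not a site of binding.

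Igfbp5 encodes a carrier that binds extracellular matrix. It was read at high levels in the stroma, and its level there was similar in both libraries: fibroblast-like cells had 469 CPM (338 to 633) in the control library and 501 CPM (434 to 576) in the progesterone library, for a ratio of 1.07 (0.764 to 1.53). In the control library 1 of the 77 fibroblast-like cells held 33.3% of the class's 42 Igfbp5 UMIs. Blood endothelium-like cells of the progesterone library had 425 CPM. The basal squamous-like level was 19.0 CPM (15.5 to 23.1; 101 UMIs) in the control library and 78.3 CPM (73.7 to 83.1; 1089 UMIs) in the progesterone library, for a ratio of 4.12 (3.36 to 5.10).

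The basal Igfbp5 difference was also seen cell by cell. After thinning to 2000 UMIs, 4.45% (3.12 to 6.14) of 786 basal squamous-like control cells and 13.2% (11.9 to 14.5) of 2673 progesterone cells had an Igfbp5 UMI. The same shares were 0.870% and 0.635% in luminal-like cells. The median depths of these basal cells before thinning were 5758.5 and 4644 UMIs. Without thinning, the shares over all basal squamous-like cells were 7.07% and 20.5%. Basal cells with at least 3 Igfbp5 UMIs numbered 4 of 1089 in the control library and 118 of 2893 in the progesterone library, and the highest cell had 4 and 12. The basal squamous-like class held 45.1% of all Igfbp5 UMIs in the control library, or 25.9% with coarser clustering, and 71.0% in the progesterone library.

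Within clusters the basal Igfbp5 ratio was smaller or uneven. In cluster 3 it was 50.9 CPM in the control library and 89.5 CPM in the progesterone library, for a ratio of 1.76 (1.27 to 2.51). In cluster 4 the levels were 18.5 and 18.1 CPM, for a ratio of 0.974 (0.555 to 1.65), and in cluster 11 they were 7.75 and 31.1 CPM, for a ratio of 4.00 (2.16 to 7.82). Cluster 3 had the highest Igfbp5 level of the 3 in both libraries and a larger share of the progesterone cells. In suprabasal squamous-like cells Igfbp5 was 1.99 CPM (8 UMIs) and 6.37 CPM (54 UMIs), for a ratio of 3.20 (1.51 to 7.79), but within cluster 0 it was 7.22 and 6.41 CPM, for a ratio of 0.887 (0.358 to 2.84), and with coarser clustering the class ratio was 0.773. Luminal-like cells had 2.20 CPM (3 UMIs) and 3.87 CPM (39 UMIs).

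Igfbp2 encodes a carrier of the IGFs that is common in epithelia. Squamous-like cells held 92.9% of its UMIs in the control library and 92.2% in the progesterone library, and the basal squamous-like class alone 53.6% and 77.1%. The basal level was 119 CPM (110 to 129; 634 UMIs) in the control library and 63.1 CPM (59.0 to 67.4; 878 UMIs) in the progesterone library, for a ratio of 0.529 (0.477 to 0.587). The suprabasal level was 108 CPM (98.0 to 119; 434 UMIs) and 19.8 CPM (16.9 to 23.1; 168 UMIs), for a ratio of 0.184 (0.153 to 0.220), which was 0.317 with doublets kept and 0.492 with the libraries clustered apart. In fibroblast-like cells 0 and 4 Igfbp2 UMIs were read, and in luminal-like cells 5 and 15.

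The Igfbp2 ratio went in opposite directions among the basal clusters. In the mostly non-cycling cluster 3 it was 27.5 CPM (20 UMIs) in the control library and 68.2 CPM (774 UMIs) in the progesterone library, for a ratio of 2.48 (1.59 to 4.08). In cluster 4 it was 137 and 37.8 CPM, for a ratio of 0.276 (0.197 to 0.378), and in cluster 11 it was 130 and 43.8 CPM, for a ratio of 0.336 (0.246 to 0.452). In the suprabasal cluster 0 it was 18.8 and 19.6 CPM, for a ratio of 1.04 (0.593 to 2.00), and the control cells of cluster 1 had 127 CPM. Control Igfbp2 was thus high in clusters 4, 11 and 1 and low in clusters 3 and 0, whereas the progesterone levels of the basal clusters lay between 37.8 and 68.2 CPM.

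**Figure D2:**
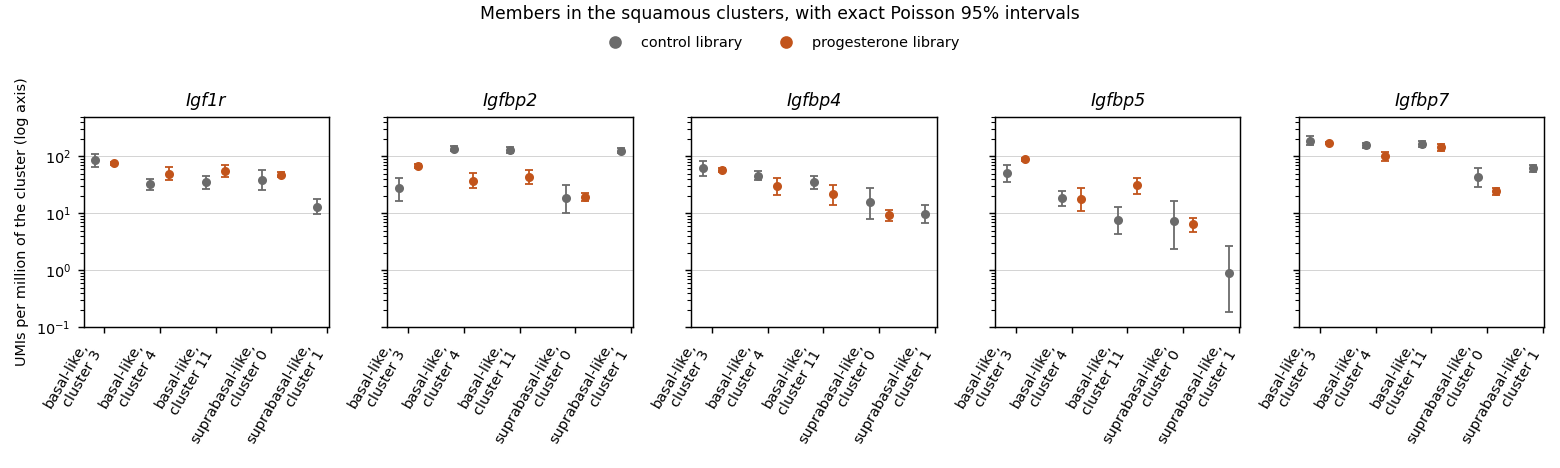
Level of 5 genes in the basal-like clusters 3, 4 and 11 and the suprabasal-like clusters 0 and 1, in CPM of the cluster on a log axis, for the control library (grey) and the progesterone library (orange), with exact Poisson 95% intervals. Igfbp2 is higher in the progesterone library in cluster 3 (68.2 against 27.5 CPM) and lower in clusters 4 and 11; cluster 1 had 6 progesterone cells and only its control level is drawn.

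Cycling was also read cell by cell, from at least 2 UMIs of a list of 10 proliferation genes in cells thinned to 2000 UMIs. By this rule 353 of 786 basal squamous-like control cells and 313 of 2673 progesterone cells were cycling. Igfbp5 was 24.1 CPM (14.0 to 38.6) in cycling and 27.7 CPM (17.8 to 41.2) in other basal cells of the control library, and 47.9 CPM (32.3 to 68.4) and 106 CPM (96.6 to 115) in the progesterone library. Its level thus was lower in the cycling cells of the progesterone library beyond counting error, and the control intervals overlapped. Igfbp2 did not separate by this rule: it was 108 and 104 CPM in the control library and 63.9 and 63.6 CPM in the progesterone library. Igf1r was 29.7 and 48.5 CPM in the control library and 70.3 and 81.6 CPM in the progesterone library.

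Counts of cells that held both Igfbp2 and Igfbp5 among the thinned basal squamous-like cells were near those that the product of the separate shares gives. There were 4 such cells in the control library, against a product of 5.57, and 48 in the progesterone library, against 39.0. Not all pairs were near the product. For Igf1r and Igfbp5 the counts were 8 against 2.81 in the control library and 56 against 52.5 in the progesterone library. In the progesterone library Igfbp4 and Igfbp5 had 50 against 37.0 and Igfbp2 and Igfbp7 had 95 against 79.3, whereas Igf1r and Igfbp4 had 36 against 41.9. Independence of the genes was not tested.

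Across the epithelial layers, the carriers were mostly basal. Of the 6 genes with at least 20 UMIs over both layers, 5 were at least 2-fold higher in basal than in suprabasal squamous-like cells in each library. In the control library these were Igf1r, Igfbp3, Igfbp4, Igfbp5 and Igfbp7, where 18.6% of all genes passed the same rule. In the progesterone library they were Igfbp2, Igfbp3, Igfbp4, Igfbp5 and Igfbp7, where 10.8% of all genes did. The median log2 ratio of the 6 genes was 1.54 in the control library and 2.08 in the progesterone library, against 0.34 and 0.07 over all genes. Igfbp5 had the highest of these ratios, at 9.55 (4.67 to 22.7) and 12.3 (9.34 to 16.5), although the control value was 2.41 with coarser clustering. Igfbp2 had 1.11 (0.977 to 1.25) and 3.18 (2.70 to 3.78). The control suprabasal class held 412 cells of cluster 1 and 164 of cluster 0, so its ratios compare basal cells mostly with cluster 1. Control levels in cluster 0 were 39.0 CPM for Igf1r, 18.8 CPM for Igfbp2 and 7.22 CPM for Igfbp5. The basal control levels of these genes were 40.7, 119 and 19.0 CPM. Against cluster 0 the Igf1r levels were thus similar and Igfbp2 was higher in the basal class.

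Between squamous-like and luminal-like cells, Igfbp2, Igfbp4 and Igfbp5 were at least 2-fold higher in the squamous-like cells of both libraries, 3 of 6 genes in the control library (21.6% of all genes) and 4 of 7 with Igfbp7 in the progesterone library (12% of all genes). Igfbp6 was lower in the squamous-like cells of the progesterone library, at 0.197 (0.0741 to 0.476). The Igfbp2 ratio was 23.6 (10.1 to 72.9) in the control library and 31.0 (18.7 to 55.6) in the progesterone library, and fell to 7.71 and 13.5 with doublets kept. Igfbp4 had 8.88 and 14.4. Igfbp7 did not follow this pattern in the control library, at 0.854 (0.728 to 1.01), and was 2.12 (1.93 to 2.34) in the progesterone library. The median log2 ratio was 1.57 and 1.08, against 0.18 and -0.15 over all genes.

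Against the squamous-like epithelium, fibroblast-like cells were at least 2-fold higher in 6 of 8 genes in both libraries, namely Igf1, Igfbp3, Igfbp4, Igfbp5, Igfbp6 and Igfbp7, while 26.3% of all genes passed in the control library and 17.7% in the progesterone library. Igf1 and Igfbp6 had the highest ratios, 2050 and 2513 in the control library, resting on 2 and 13 UMIs in squamous-like cells. Igfbp5 had 42.7 (29.5 to 60.7) in the control library and 9.91 (8.48 to 11.5) in the progesterone library. Igf1r had 1.02 (0.209 to 3; 3 fibroblast UMIs) and 1.05 (0.682 to 1.54). Igfbp2 was the gene on the epithelial side, at most 0.386 in the control library (0 fibroblast UMIs set at a floor of 3) and 0.219 (0.0595 to 0.561) in the progesterone library.

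**Figure D3:**
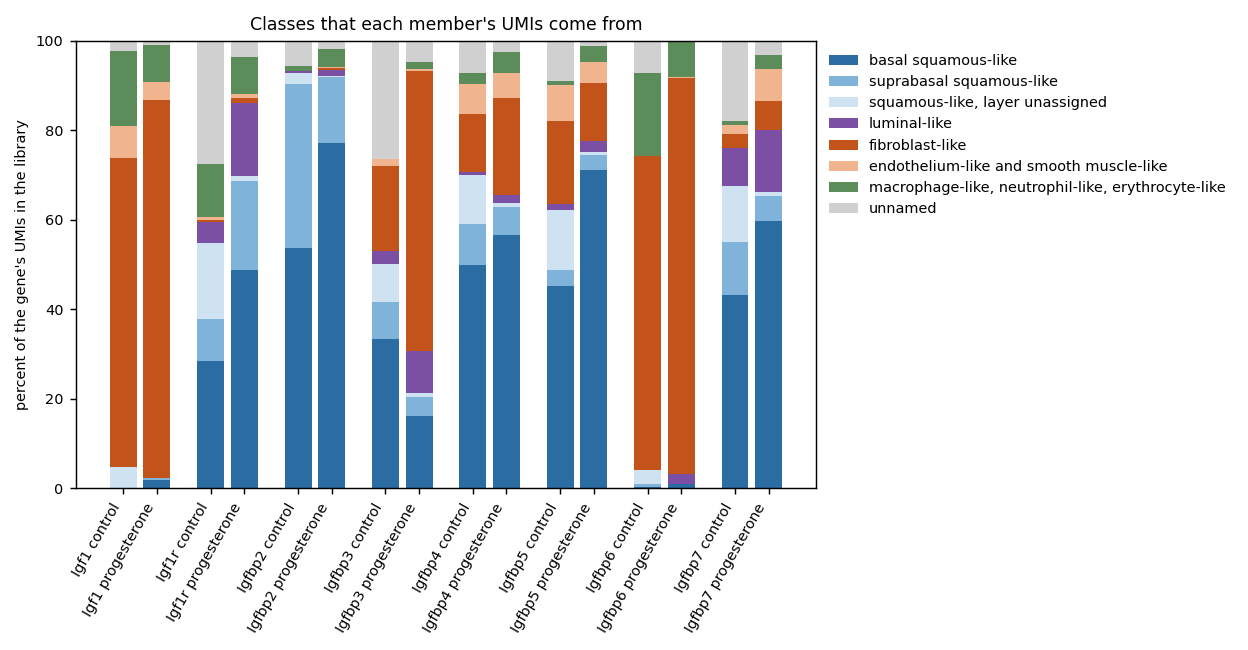
Percent of each gene's UMIs that came from each class of cells, stacked to 100, for the control and the progesterone library; grey marks unnamed cells. Igf1 and Igfbp6 come mainly from fibroblast-like cells (69.0% and 70.2% in the control library), Igfbp2 comes from squamous-like cells, and the basal squamous-like share of Igfbp5 is 45.1% in the control library and 71.0% in the progesterone library.

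Counted as a set, the 8 genes had no common direction between the libraries. In basal squamous-like cells 1 of 6 genes was at least 2-fold higher with progesterone (Igfbp5), where 11.4% of all genes were, and 1 was at least 2-fold lower (Igfbp3), where 7.4% were. In suprabasal squamous-like cells 2 of 5 were higher (Igf1r and Igfbp5, beside 21.6% of all genes) and 2 were lower (Igfbp2 and Igfbp7, beside 5.99%). Cluster 1 of this class held 412 control and 6 progesterone cells. Within cluster 0 the ratios were 1.24 for Igf1r, 0.887 for Igfbp5, 1.04 for Igfbp2 and 0.564 for Igfbp7, none past 2-fold. In luminal-like cells, which lay mostly in different clusters in each library, 0 of 6 were higher (23.1% of all genes). Lower were 2 (Igfbp2 and Igfbp7, beside 7.47% of all genes). The Igfbp2 ratio rests on 5 control UMIs and its interval of 0.140 to 1.43 includes 1.

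In fibroblast-like cells 0 of 7 genes passed in either direction, where 9.77% of all genes were higher and 8.2% lower. The median log2 ratio of the genes with enough UMIs was 0.11 in basal squamous-like, -0.23 in suprabasal squamous-like, -0.48 in luminal-like and 0.10 in fibroblast-like cells. Over all genes the medians in these classes were 0.05, 0.35, 0.44 and -0.08.

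**Figure D4:**
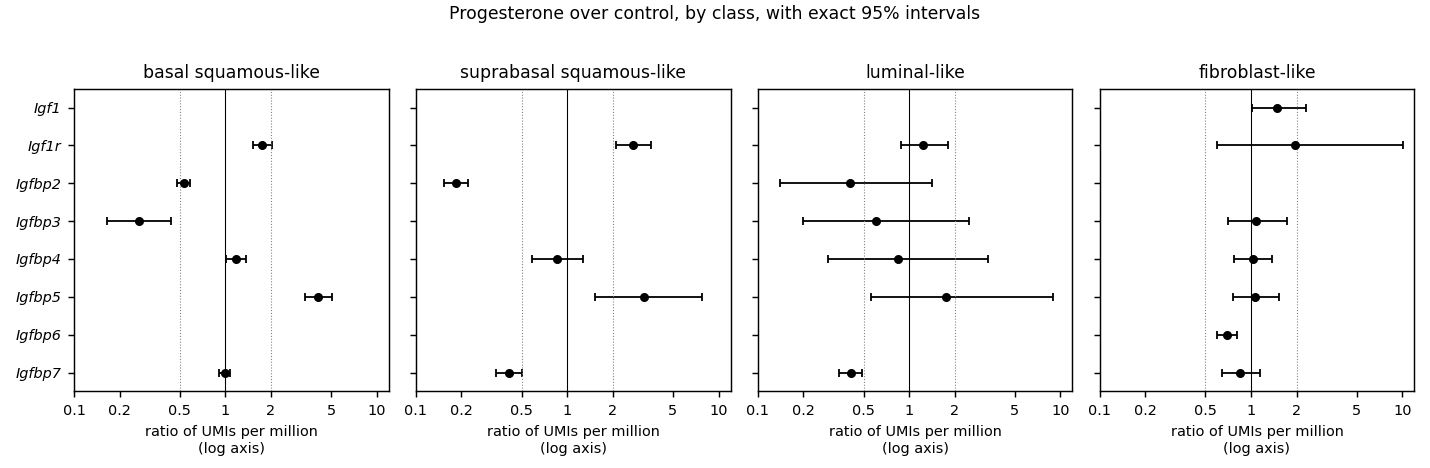
Ratio of progesterone over control level for each gene in 4 classes, on a log axis, with exact 95% intervals. Dotted lines mark 2-fold in each direction. A gene at 0 in a library, or with under 20 UMIs over both libraries in a class, is left out of that class. Igfbp5 stands above 2-fold in the basal squamous-like class (4.12) and Igfbp2 below it in the suprabasal squamous-like class (0.184), while 5 of the 7 fibroblast-like intervals include 1 (all but those of Igf1 and Igfbp6).

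Macrophage-like cells had higher counts of the epithelial carriers in the progesterone library. Igfbp7 was 10.3 CPM (4 UMIs) in the control library and 63.7 CPM (80 UMIs) in the progesterone library, and Igfbp5 was 2.57 CPM (1 UMI) and 29.5 CPM (37 UMIs). In the same cells all 7 basal squamous markers were above 0, with a summed level of 1533 CPM in the control library and 7587 CPM in the progesterone library. The part of this epithelial RNA in the macrophage values was not tested. In basal squamous-like cells the 7 fibroblast markers summed to 2.07 CPM in the control, with Lum and Pdgfra at 0, and to 5.39 CPM in the progesterone library, with none at 0. Their part in the basal values was not tested.

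Of 21 other genes of the pathway, 14 had at least 100 UMIs over both libraries, Igfals, Pappa, Pappa2 and Stc1 had fewer, and Igf2, Igfbp1 and Igfbpl1 had 0. In basal squamous-like cells 6 of 13 with at least 20 UMIs were at least 2-fold higher in the progesterone library and 1 was lower, beside the 11.4% and 7.4% of all genes given above. Their median log2 ratio was 0.29. The 6 were the insulin receptor Insr (6.96 and 17.5 CPM, ratio 2.51), the receptor substrates Irs1 (6.21 and 17.1 CPM, 2.75) and Irs2 (2.26 and 6.47 CPM, 2.86), the regulatory kinase subunit Pik3r1 (84.9 and 203 CPM, 2.39), the growth hormone receptor Ghr (27.3 and 58.7 CPM, 2.15) and its feedback inhibitor Socs2 (18.6 and 41.4 CPM, 2.22). All 6 intervals of these ratios lie above 1.

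In suprabasal squamous-like cells the same 6 of 13 genes were at least 2-fold higher, beside 21.6% of all genes. At least 2-fold lower were 0, beside 5.99% of all genes. Socs2 had the highest of these ratios, 23.6 CPM in the control library and 112 CPM in the progesterone library, for a ratio of 4.74 (3.83 to 5.92). The Irs2 ratio of 2.02 (0.658 to 8.24) has an interval that includes 1.

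Within clusters, Socs2 was the one of these 6 genes whose ratio stayed above 2-fold in each of the 4 clusters compared. Its ratio was 4.17 (2.01 to 10.4) in cluster 3, on 7 control UMIs. Clusters 4 and 11 had 2.03 (1.37 to 3.02) and 2.86 (1.87 to 4.45), and the suprabasal cluster 0 had 2.04 (1.48 to 2.91). Pik3r1 was above 1 in the basal clusters, at 1.43 (1.19 to 1.74), 1.36 (1.08 to 1.71) and 1.35 (1.05 to 1.75), and was 1.11 (0.846 to 1.49) in cluster 0. The basal Ghr ratio of 2.15 was 1.25 (0.897 to 1.81) in cluster 3 and 1.80 in both cluster 4 and cluster 11. Insr, Irs1 and Irs2 were below 1 in cluster 3, at 0.947 (0.552 to 1.76), 0.821 (0.501 to 1.44) and 0.656 (0.318 to 1.57), all with intervals that include 1, while in cluster 4 they had 3.10, 2.69 and 6.82 on 11, 11 and 2 control UMIs. Insr also was above 2-fold in cluster 11, at 2.31 (1.05 to 5.26), and in cluster 0, at 2.30 (1.10 to 5.80). The ratios of Irs1 and Irs2 in those clusters lay between 0.657 and 2.16 with intervals that include 1. These 3 genes thus differed between the libraries in the class and not beyond counting error in its largest cluster.

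The gene that was lower in basal squamous-like cells was Htra1, a secreted serine protease known to cut binding proteins. It was 41.2 CPM in the control library and 18.5 CPM in the progesterone library, for a ratio of 0.450 (0.374 to 0.541). Its ratio was below 1 within each of clusters 3, 4 and 11, at 0.465 (0.318 to 0.700), 0.325 (0.183 to 0.542) and 0.335 (0.178 to 0.591). In fibroblast-like cells Htra1 was 245 and 202 CPM.

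In luminal-like cells 5 of 12 pathway genes were at least 2-fold higher, beside 23.1% of all genes. At least 2-fold lower was 1, Irs2, at 6 control and 17 progesterone UMIs, beside 7.47% of all genes. Most control and most progesterone cells of this class lay in different clusters. Ghr was 64.5 CPM in the control library and 213 CPM in the progesterone library, for a ratio of 3.30 (2.66 to 4.13). Within cluster 9 Ghr went the other way, at 0.267 (0.132 to 0.493). Stc2, a secreted inhibitor of the pappalysin proteases, was 1.47 CPM (2 UMIs) and 13.5 CPM (136 UMIs) in the class, for a ratio of 9.19 (2.50 to 76.7), and its ratio within cluster 9 was 36.4 (9.48 to 311). The mannose 6-phosphate and IGF2 receptor Igf2r was 33.0 and 54.4 CPM, and the median log2 ratio of the 12 genes was 0.89 against 0.44 over all genes.

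In fibroblast-like cells 7 pathway genes had enough UMIs. Akt1, the kinase downstream of the receptor, was at least 2-fold higher on 1 control UMI, beside 9.77% of all genes. Tmem219, a receptor for IGFBP3, was at least 2-fold lower at 0.349 (0.154 to 0.824), beside 8.2% of all genes. In basal squamous-like cells the remaining 6 of the 13 genes stayed within 2-fold. These were Igf2r (26.5 and 23.9 CPM), the adaptor Grb10 (7.72 and 5.61), Akt1 (60.4 and 45.5), the transcription factors Foxo1 (26.5 and 24.2) and Foxo3 (21.8 and 26.7) and Tmem219 (32.4 and 39.4).

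**Figure D5:**
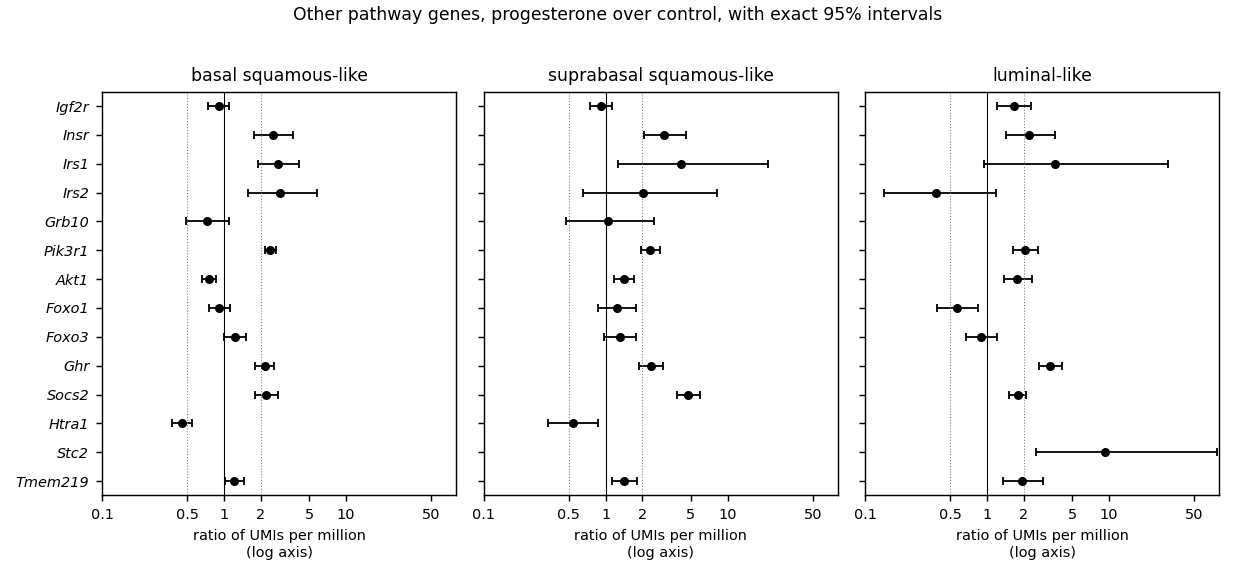
Ratio of progesterone over control level for 14 other genes of the pathway in 3 epithelial classes, on a log axis, with exact 95% intervals; dotted lines mark 2-fold in each direction, and a gene with too few UMIs in a class is left out there. Insr, Irs1, Irs2, Pik3r1, Ghr and Socs2 lie above 2-fold in both squamous-like layers, Htra1 lies below 1 in both, and Stc2 has the widest interval of the luminal-like class (2.50 to 76.7).

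The patterns over classes were set beside those of all other genes by the correlation of log2 (CPM + 10) over 16 sums of class and library, as a description. These points share libraries and depth. Igf1 was most like Selenom (r = 0.961), Serping1 and Aebp1, and Igfbp3 most like the matrix genes Col1a2 (0.983), Mfap5 and Dpt. Igfbp4 was most like Fbln2 (0.965), Aebp1 and Sparc, Igfbp5 most like Fbln2 (0.975), Tgfbr3 and Hspg2, and Igfbp6 most like Pi16 (0.973), C3 and Xdh. Igf1r was most like Tnrc18 (0.946), Rlf and Fbxl5, Igfbp7 most like Cavin1 (0.928), Ptprg and Kif3a, and Igfbp2 most like the amino acid transporter gene Slc7a5 (0.898), Gdpd2 and Bcl11b.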

How the data were processed

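The authors deposited 1 matrix of raw UMI counts for each library, whole numbers by gene and barcode, per the file headers. Tissue was digested with cold protease for 60 min at 4 °C and strained at 40 µm, and RNA was captured with the 10x 3′ chemistry, version 3.1, per the labels' protocols. Cell Ranger 3.0.2 and the build mm10 are named in the submitters' processing notes. The counting settings are not given in the sources used here.

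Cells needed 200 genes or more and a mitochondrial share of UMIs no higher than 20%. Doublets were left out by Scrublet score (scanpy 1.11.5) at 0.8% per 1000 cells, 181 control and 680 progesterone cells. Both libraries were clustered together on 2000 variable genes, 30 principal components and 15 neighbours (Leiden resolution 1), without mitochondrial genes and without the 8 genes and the 21 other pathway genes. Clusters were named from fixed markers, with thresholds adjusted after the clusters were seen.

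UMIs were summed per class and library. Ratios needed at least 20 UMIs over both sums for a count of genes past 2-fold, and classes needed 50 cells in a library. A gene at 0 was set at 3 counts. Intervals are at 95%, computed with scipy 1.17.1, and the ratio code was tested on simulated data. All 8 genes are named, and other pathway genes are described where they had at least 100 UMIs over both libraries. For likeness, the 3 genes with the highest correlation were taken among those with at least 500 UMIs. Gene positions are from GENCODE M21 (GRCm38), which holds 30934 of the 31053 identifiers. The genes, lists and markers were chosen with earlier results of these data known.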

Additional observations from a re-analysis of the deposited data

Results flagged for a closer look

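Igfbp2 stood out because its difference between the libraries ran in opposite directions among the basal squamous-like clusters. The ratio of progesterone over control was 2.48 in cluster 3, 0.276 in cluster 4 and 0.336 in cluster 11. With 1 library per group the difference between clusters was not tested. Cluster 3 rests on 20 control UMIs.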

How the results depend on the processing

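Recomputed under other settings were ratios of the 8 genes between libraries and between layers, chosen shares of UMIs and of cells, and counts of genes past 2-fold. The library ratios were those of basal, suprabasal, luminal, fibroblast-like and neutrophil-like cells. Other values were not recomputed, apart from those within clusters given above. These include the other pathway genes, macrophage-like and cycling cells, pairs and likeness. The settings changed 1 choice at a time, except that the stricter cell filter moved the limits on UMIs and on the mitochondrial share together. Of 792 values over 110 results, 595 stayed the same, 186 moved and 11 changed direction, the last in 8 results. A ratio or share stayed the same within the counting interval of the reported value. A count of genes past 2-fold, which has no interval, stayed the same within a fixed fold of the reported count. Direction was scored for ratios only, where the reported interval excluded 1. All 10 shares of cells with a UMI moved at each other depth, and such shares depend on depth. Clusters taken alone, the secretory cluster counted as luminal-like and unnamed cells left out were chosen after seeing the data. No paired analysis was possible because there is 1 library per group, and for the same reason no replicate could be left out. The causes of the changes were not tested unless the setting itself is a change of the cells or genes counted.

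The basal ratio of Igf1r (1.76) was 1.47 with the stricter cell filter (at least 1000 UMIs, at most 10% mitochondrial), 1.42 at Leiden resolution 0.5, 1.38 as a mean of each cell's CPM and 0.883 in cluster 3 alone. That of Igfbp2 (0.529) was 0.666 and 0.594 at Leiden resolutions 0.5 and 2, 0.613 without mitochondrial, ribosomal protein and the 20 most abundant genes, 0.724 as a mean of each cell's CPM, and 2.48, 0.276 and 0.336 in clusters 3, 4 and 11. That of Igfbp4 was 0.938, 0.652 and 0.612 in those clusters. That of Igfbp5 (4.12) was 3.35 with pathway genes kept in the clustering, 1.76 in cluster 3 and 0.974 in cluster 4.

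The suprabasal ratio of Igfbp2 (0.184) was 0.317 with doublets kept, 0.355 with the stricter filter, 0.264 at Leiden resolution 2, 0.492 with the libraries clustered apart, 0.314 with pathway genes kept and 1.04 in cluster 0. That of Igfbp5 was 0.773 at Leiden resolution 0.5 and 0.887 in cluster 0. The neutrophil-like ratios turned at Leiden resolution 0.5, to 1.65 for Igf1r and 1.44 for Igfbp6. The basal over suprabasal ratio of Igfbp5 was 2.41 in the control library at resolution 0.5 and 17.3 in the progesterone library with the stricter filter. The squamous over luminal ratio of Igfbp2 was 7.71 and 13.5 with doublets kept. The basal squamous-like share of Igfbp5 UMIs in the control library (45.1%) was 52.9% with doublets kept, 58.8% with the stricter filter, 25.9% and 55.8% at Leiden resolutions 0.5 and 2, 55.8% with the libraries clustered apart and 58.9% with pathway genes kept. In the progesterone library (71.0%) it was 66.8% with doublets kept, 75.1% with the stricter filter and 68.4% at Leiden resolution 2. The fibroblast-like share of Igfbp6 was 80.2% (control) and 92.1% (progesterone) with the stricter filter, and 75.7% in the control library with unnamed cells left out.

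Counts of genes past 2-fold moved with the minimum of UMIs, and so did the number of genes tested. With at least 100 UMIs in place of 20, higher counts were 715 of 9372 (basal, 7.63%), 1202 of 7761 (suprabasal, 15.5%), 1651 of 8327 (luminal, 19.8%) and 27 of 504 (fibroblast, 5.36%). With at least 20 UMIs these shares were 11.4%, 21.6%, 23.1% and 9.77%. Lower counts with at least 100 UMIs were 384 (suprabasal, 4.95%), 489 (luminal, 5.87%) and 22 (fibroblast, 4.37%). Basal over suprabasal counts were 856 (12.5%) and 661 (6.87%), squamous over luminal 963 (9.10%) in the progesterone library, and fibroblast over squamous 1608 (20.4%) and 1198 (12.3%). With no minimum, lower counts were 1639 (basal, 9.90%), 1492 (suprabasal, 9.49%), 2010 (luminal, 12.3%) and 2358 (fibroblast, 18.5%). The higher fibroblast count was then 792 (6.20%), and the fibroblast over squamous count was 3473 (20.1%) in the progesterone library. Among the classes described in both libraries, the control sums were smallest for fibroblast-like (89620 UMIs), neutrophil-like (197537) and macrophage-like (388694) cells, which limits the precision of their values.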
